A study of Mus musculus with 10 samples.

Results

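The ubiquitin-specific proteases (Usp genes) were described in the hearts of mice given lipopolysaccharide (LPS), the endotoxin of Gram-negative bacteria. The members were all protein-coding rows of the deposited count table whose symbol is Usp, a number and optional letters, and this gave 55 of the 54532 genes in the table. Usp18, which removes ISG15 and not ubiquitin, was left out of the member rule. The members were taken by a rule on names, which was chosen with earlier results of these data known.

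Hearts of 5 C57BL/6 mice taken 24 h after LPS were compared with hearts of 5 C57BL/6 mice injected with saline. All mice were 8 weeks old, and the labels give no genetic change in either group. Each library carries a mouse number of its own, and p-values measure the spread between these mice. The labels state no sex, dose or batch. Whole hearts were used, so in these bulk samples fewer cells of a type and less RNA per cell cannot be told apart.

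Ubiquitin is a small protein that is attached to other proteins as a mark for destruction by the proteasome, for sorting through membranes or for signalling. Ubiquitin-specific proteases are cysteine proteases that cut it off again, and they form the largest family of deubiquitinases in mammals. Their substrates include histones, p53 regulators, receptors on endosomes, proteins of the mitochondrial outer membrane and the TRAF adaptors that carry signals from Toll-like and interleukin receptors. In heart and skeletal muscle, protein breakdown by ubiquitin and the proteasome sets the turnover of contractile proteins.

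Libraries held between 14607969 and 17012372 counted reads in the LPS group and between 15586690 and 16786516 in the saline group. The TMM factors, which correct the library size for a few abundant genes, were between 0.829 and 0.958 in LPS libraries and between 1.00 and 1.15 in saline libraries. Levels are given as CPM, the reads of a gene divided by the TMM-scaled library size, in counts per 1e6 reads. The libraries fitted their tissue label: 6 cardiomyocyte markers summed to between 38644 and 41092 CPM in LPS hearts and between 35237 and 43177 CPM in saline hearts, and none of the 6 passed the test. Saline replicate 5 stood apart from the other saline libraries. A list of 12 interferon-stimulated genes summed to between 9600.1 and 19435 CPM in LPS hearts, to 5139 CPM in saline replicate 5 and to between 135 and 521 CPM in saline replicates 1 to 4. Calls of the Usp genes without saline replicate 5 are summarised further on, and values without it are given for some genes.

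Of the 55 Usp genes, 43 had enough reads to be tested. In LPS hearts 9 of the 43 rose, 6 fell and 28 did not pass (edgeR's quasi-likelihood F-test, Benjamini-Hochberg adjusted p under 0.05 over 13864 genes). The 15 called members are 34.9% of those tested, where 39.9% of all tested genes were called. The risers were 20.9% of the tested members, against 18.9% of all tested genes, and the fallers 14.0%, against 21% of all tested genes. The shares lie near those of the whole transcriptome, and the counts say nothing particular about the family. The median log2 fold change was 0.01 over the Usp genes and -0.02 over all tested genes, and the median size of the change was 0.17 and 0.32. Changes of at least 0.5 in log2 size were called in 9 members, or 20.9%, against 30.5% of all tested genes. In 7 members, or 16.3%, the ranges of the groups were apart, which was so for 28.4% of all tested genes. The split depended on the scaling of the libraries. With upper quartile scaling 6 rose and 9 fell, and with total count scaling 5 rose and 16 fell. The called share was then 34.9% and 48.8% of tested members, against 46.2% and 54.0% of all tested genes. These scalings shifted all genes together, by a median of -0.16 and -0.27 in log2 fold change. Rises counted 11 and falls 8 of 44 tested members without saline replicate 5, and falls counted 3 without saline replicate 1, 2 or 3. The called share without saline replicate 5 was 43.2% of members, against 44.0% of all tested genes. Without saline replicate 1, 2 or 3 it was 30.2%, 27.9% and 23.3% of members, against 35.4%, 34.2% and 34.6% of all tested genes.

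**Figure D1:**
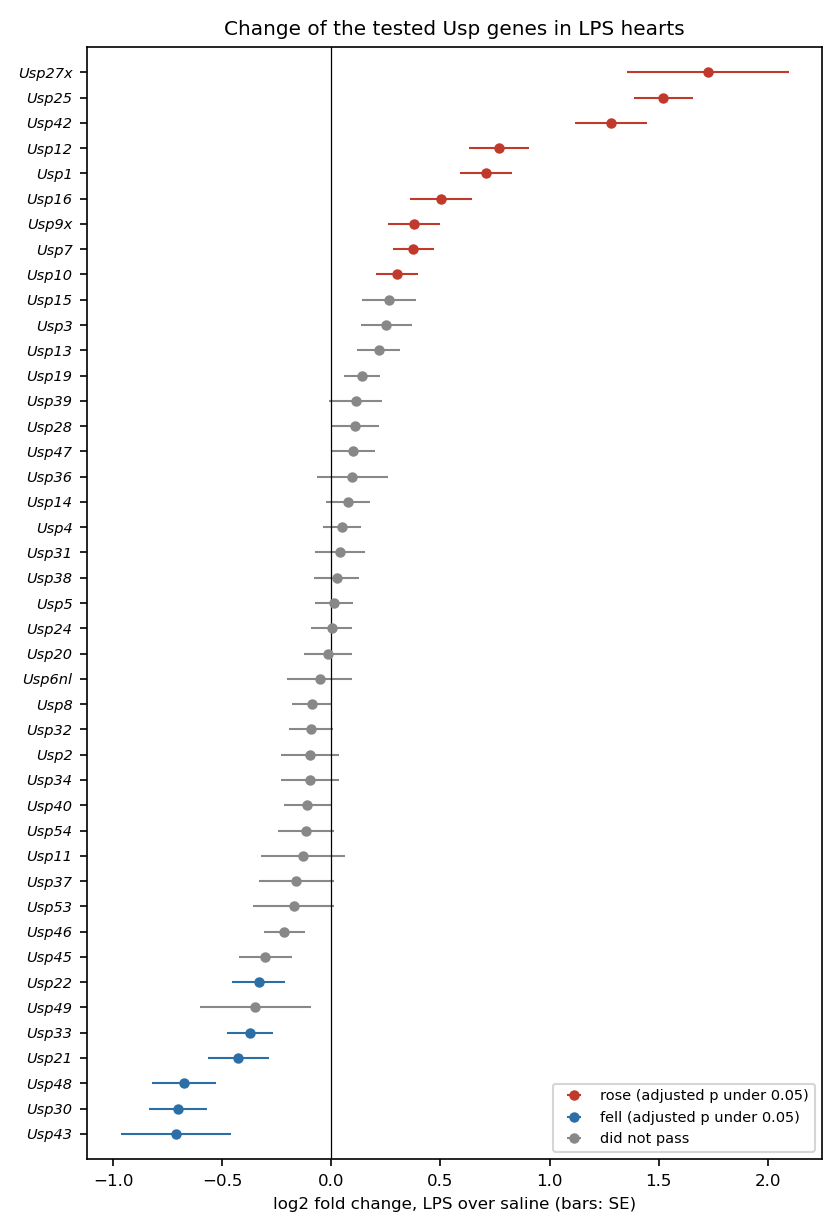
Log2 fold change of each of the 43 tested Usp genes, LPS over saline, on the x axis, with bars of 1 SE and 1 gene per row. Red points rose, blue points fell and grey points did not pass. The changes ran from 1.73 for Usp27x to -0.71 for Usp43, and 28 grey points lie between -0.35 and 0.26.

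Usp25 rose in LPS hearts with the lowest adjusted p of the family. The gene (ENSMUSG00000022867, GRCm38 chr16:77013706-77116780, plus strand) encodes a protease that acts on TRAF adaptors in cytokine and Toll-like receptor signalling. Its level was 265, 308, 227, 286 and 320 CPM in the 5 LPS hearts and 89.0, 90.5, 83.5, 94.6 and 132 CPM in the 5 saline hearts. Every LPS heart lay well above every saline heart, and the highest saline value belonged to replicate 5. The means were 281 ± 36.9 CPM in LPS hearts and 98.0 ± 19.7 CPM in saline hearts (SD, n = 5 each), a 2.87-fold higher level. The log2 fold change was 1.52 ± 0.14 (SE, edgeR adjusted p = 1.6e-06), and 1.66 without saline replicate 5.

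Usp25 also changed place within the family. Per kilobase of gene length (RPKM, CPM divided by the length in the count table), it was at 54.1 ± 7.09 in LPS hearts and 18.8 ± 3.78 in saline hearts (SD, n = 5 each). It stood above all other Usp genes in LPS hearts and behind Usp13 and Usp28 in saline hearts. Usp25 took 11.8% ± 0.913 of all Usp reads in LPS hearts and 4.84% ± 0.630 in saline hearts (SD, n = 5 each). The summed level of the 55 genes was 2376 ± 190 CPM in LPS hearts and 2013 ± 150 CPM in saline hearts. Without Usp25 the sums were 2095 ± 159 CPM in LPS hearts and 1915 ± 133 CPM in saline hearts (SD, n = 5 each). The groups overlapped in both sums of CPM. With Usp25 the ranges were 2162 to 2633 CPM in LPS hearts and 1872 to 2249 CPM in saline hearts. Without Usp25 they were 1897 to 2313 CPM in LPS hearts and 1781 to 2117 CPM in saline hearts. Summed per kilobase with Usp25, the groups lay just apart. The ranges were 303.2 to 361.0 RPKM in LPS hearts and 252.5 to 302.4 RPKM in saline hearts.

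**Figure D2:**
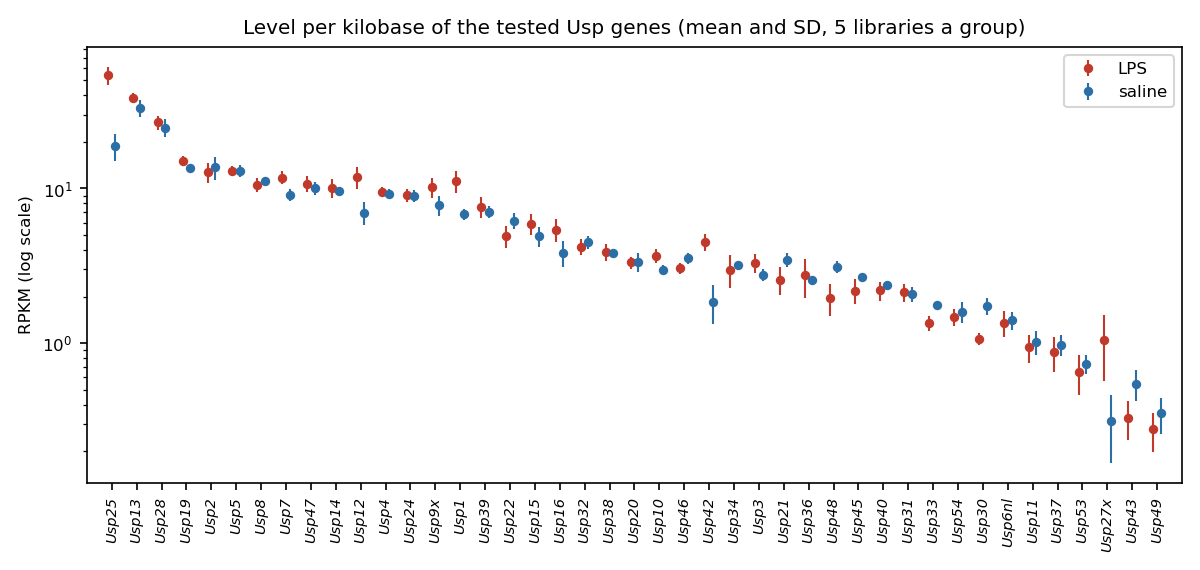
Level of each of the 43 tested Usp genes in RPKM, on a log axis, as the mean and SD of 5 libraries, with LPS in red on the left and saline in blue on the right of each gene. Genes are ordered by their mean over all libraries. Usp25 is at 54.1 in LPS hearts and 18.8 in saline hearts, and most other pairs of points lie close together.

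The other abundant members were Usp13, Usp28, Usp19 and Usp2, and none of them passed the test. Usp13, a relative of the free-chain protease Usp5 that acts on the autophagy protein Beclin 1 in mammalian cells, was at 267, 305, 281, 298 and 317 CPM in LPS hearts and at 289, 220, 233, 235 and 288 CPM in saline hearts. Saline replicates 1 and 5 lay among the LPS values. The means were 294 ± 19.5 CPM in LPS hearts and 253 ± 33.0 CPM in saline hearts (SD, n = 5 each), with a log2 fold change of 0.22 ± 0.10 (SE, edgeR adjusted p = 0.1). Without saline replicate 5 the adjusted p was 0.0398, and without saline replicate 1 it was 0.0452, both by edgeR.

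Usp28, the closest relative of Usp25 and a protease of Myc and of DNA damage signalling, was at 130, 174, 157, 164 and 154 CPM in LPS hearts and at 151, 118, 141, 141 and 171 CPM in saline hearts. The groups overlapped over most of their range, with a log2 fold change of 0.11 ± 0.11 (SE, edgeR adjusted p = 0.465). Usp19, which has a form anchored in the endoplasmic reticulum and is known in muscle wasting, was at 103, 97.5, 114, 100 and 114 CPM in LPS hearts and at 98.7, 90.5, 98.4, 91.2 and 102 CPM in saline hearts. Its log2 fold change was 0.14 ± 0.08 (SE, edgeR adjusted p = 0.205). Usp2, which acts on clock and cell cycle proteins, was at 47.1, 66.4, 68.8, 67.2 and 58.5 CPM in LPS hearts and at 67.1, 50.6, 62.7, 66.3 and 83.0 CPM in saline hearts. Its log2 fold change was -0.10 ± 0.13 (SE, edgeR adjusted p = 0.594). By the mean over all libraries the lowest tested member was Usp49, at 0.277 RPKM in LPS hearts and 0.352 RPKM in saline hearts, and the tested genes spanned a 116-fold range of level per kilobase. The low end of that range is uncertain, because 51.2% of the exon bases of Usp49 are shared with another gene on the same strand.

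Among the proteases of histones and the nucleolus, 3 of 8 tested members rose (Usp27x, Usp42 and Usp16), 2 fell (Usp21 and Usp22) and 3 did not pass (Usp3, Usp36 and Usp49). Of all tested genes 18.9% rose and 21% fell. The counts for this and the role groups below describe few genes, and no group was tested as a set. Usp27x (ENSMUSG00000046269, chrX:7371276-7375830, minus strand) can take the place of its relative Usp22 in a histone H2B deubiquitinase module with Atxn7l3 and Eny2. It had the largest fold change of the tested members, at a low level of 4.36, 6.30, 2.15, 6.72 and 2.84 CPM in LPS hearts and 0.939, 1.17, 0.729, 1.56 and 2.32 CPM in saline hearts. LPS replicate 3 lay just under saline replicate 5, and the other LPS hearts lay above all saline hearts. On the log2 scale the difference was 1.73 ± 0.37 (SE, edgeR adjusted p = 0.00207), and 2.01 without saline replicate 5 (edgeR adjusted p = 0.000314).

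Usp42 (ENSMUSG00000051306, chr5:143710325-143732280, minus strand), which acts on p53 and histone H2B in human cells, was at 29.1, 30.2, 22.1, 28.1 and 30.8 CPM in LPS hearts and at 11.6, 10.5, 9.76, 8.80 and 17.1 CPM in saline hearts. The groups did not overlap, and saline replicate 5 was the nearest to the LPS hearts. The fitted log2 fold change was 1.28 ± 0.17 (SE, edgeR adjusted p = 3.47e-05). Usp16 (ENSMUSG00000025616, chr16:87454703-87483517, plus strand), a histone H2A deubiquitinase, was at 46.0, 51.8, 40.4, 54.7 and 63.1 CPM in LPS hearts and at 28.7, 34.9, 33.3, 36.2 and 47.5 CPM in saline hearts. Its groups overlapped through saline replicate 5 alone. The log2 fold change was 0.50 ± 0.14 (SE, edgeR adjusted p = 0.0111) with the call lost under total count scaling (edgeR adjusted p = 0.125). The exons of Usp16 share 2.03% of their bases with Cct8 on the other strand, a gene with 23357 reads over all libraries. No source used here states a strand setting for the counts.

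Usp22 (ENSMUSG00000042506, chr11:61151785-61175055, minus strand), the protease of the SAGA coactivator complex, was at 20.3, 26.9, 24.9, 19.9 and 28.3 CPM in LPS hearts and at 31.9, 29.0, 31.9, 34.1 and 24.7 CPM in saline hearts. Saline replicate 5 lay within the LPS values, and the other saline hearts lay above all LPS hearts. On the log2 scale the difference was -0.33 ± 0.12 (SE, edgeR adjusted p = 0.0435). The call was lost in 8 of the 10 fits without 1 library, with adjusted p up to 0.153, and under RLE scaling (0.0621) and in DESeq2 (0.0734). Usp21 (ENSMUSG00000053483, chr1:171281945-171287991, minus strand), which cuts ubiquitin from histone H2A, was at 10.3, 10.6, 15.7, 10.4 and 14.3 CPM in LPS hearts and at 17.4, 17.3, 17.8, 16.1 and 13.8 CPM in saline hearts. The fitted log2 fold change was -0.43 ± 0.14 (SE, edgeR adjusted p = 0.026), lost in 6 of the 10 fits without 1 library (adjusted p up to 0.0875).

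Promoter stretches are shown for the members at the ends of the range: Usp27x, with the largest rise of the tested members, and Usp35, which did not enter the test and is described further on. Both windows lie outside annotated exons. They are the 250 reference bases just before the RefSeq start of the gene in GRCm38.p6, printed 5′ to 3′ on the strand of the gene. The Usp27x stretch is chrX:7375831-7376080 on the minus strand, and its capitals mark a TTCNNNGAA match and a kappaB consensus match. The Usp35 stretch is chr7:97332110-97332359 on the minus strand, with no capitals because none of the motifs searched was found there.
Usp27x: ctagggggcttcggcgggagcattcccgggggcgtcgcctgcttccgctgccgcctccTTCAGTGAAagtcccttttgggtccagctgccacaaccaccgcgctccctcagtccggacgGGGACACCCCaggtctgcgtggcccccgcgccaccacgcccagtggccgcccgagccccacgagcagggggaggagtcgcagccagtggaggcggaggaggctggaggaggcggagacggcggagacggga
Usp35: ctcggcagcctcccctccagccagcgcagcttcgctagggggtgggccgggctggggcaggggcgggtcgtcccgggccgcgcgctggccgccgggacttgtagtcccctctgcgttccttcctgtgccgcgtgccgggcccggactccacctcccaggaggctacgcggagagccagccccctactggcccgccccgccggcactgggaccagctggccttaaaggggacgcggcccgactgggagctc
The 5 motifs were a doublet of GAAA with 2 bases between the copies, TTCNNNGAA, the kappaB consensus, CACGTG and TGACGTCA, searched on both strands in the 250 bases before the start. RefSeq windows matched 43 of the 55 members and 33 of the 43 tested ones. Usp27x was the one tested member with TTCNNNGAA, which 7.13% of the windows of all tested genes hold, and its match begins 192 bases before the start. The kappaB consensus was in Usp27x, 131 bases before the start, and in Usp13, against 10.8% of all tested genes. CACGTG was in 4 of 33 members (Usp4, Usp6nl, Usp16 and Usp31), or 12.1%, against 9.87% of all tested genes, and the GAAA doublet was in 1 of 33, against 3.42%. TGACGTCA was in 0 of 33, against 3.0%. The median number of CpG per window was 27 in the 6 risers that have a window, 20 in 3 fallers, 25.5 in 24 members that did not pass and 3.5 in 10 untested members, where all tested genes had a median of 17. A match describes letters in a window and no binding was measured.

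The 3 proteases that depend on the WD repeat protein Wdr48 gave 2 risers, Usp1 and Usp12, and 1 member that did not pass, Usp46. Usp1 (ENSMUSG00000028560, chr4:98923810-98935543, plus strand), which cuts ubiquitin from the DNA repair proteins FANCD2 and PCNA, was at 46.6, 40.8, 30.3, 46.8 and 44.1 CPM in LPS hearts and at 23.8, 23.4, 25.4, 26.8 and 28.2 CPM in saline hearts. Usp12 (ENSMUSG00000029640, chr5:146734809-146795006, minus strand), whose substrates include histones and receptors in other tissues, was at 65.2, 55.8, 40.8, 57.3 and 56.7 CPM in LPS hearts and at 33.3, 35.1, 25.4, 28.5 and 39.6 CPM in saline hearts. Neither gene's groups overlapped, and in both LPS replicate 3 was the lowest LPS heart. The log2 fold change was 0.71 ± 0.12 for Usp1 (SE, edgeR adjusted p = 0.000308) and 0.77 ± 0.14 for Usp12 (SE, edgeR adjusted p = 0.000513).

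Usp46 (ENSMUSG00000054814, chr5:73998453-74068431, minus strand), a near relative of Usp12, was at 24.5, 26.4, 21.5, 22.9 and 24.1 CPM in LPS hearts and at 30.2, 27.1, 28.2, 28.7 and 24.5 CPM in saline hearts. Saline replicate 5 was the one saline heart within the LPS range. The log2 fold change was -0.22 ± 0.09 (SE, edgeR adjusted p = 0.0784), and the adjusted p was 0.0451 without saline replicate 5. Wdr48, their shared activator, was at 22.0 ± 1.73 CPM in LPS hearts and 26.5 ± 2.69 CPM in saline hearts (SD, n = 5 each), with a log2 fold change of -0.27 ± 0.10 (SE, edgeR adjusted p = 0.0418) that lost its call in 9 of the 10 fits without 1 library (up to 0.134). Wdr20, the other cofactor listed for this group, rose, and its groups did not overlap. It was at 19.0 ± 1.59 CPM in LPS hearts and 15.5 ± 1.02 CPM in saline hearts (SD, n = 5 each). The log2 fold change of Wdr20 was 0.30 ± 0.10 (SE, edgeR adjusted p = 0.0264).

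**Figure D3:**
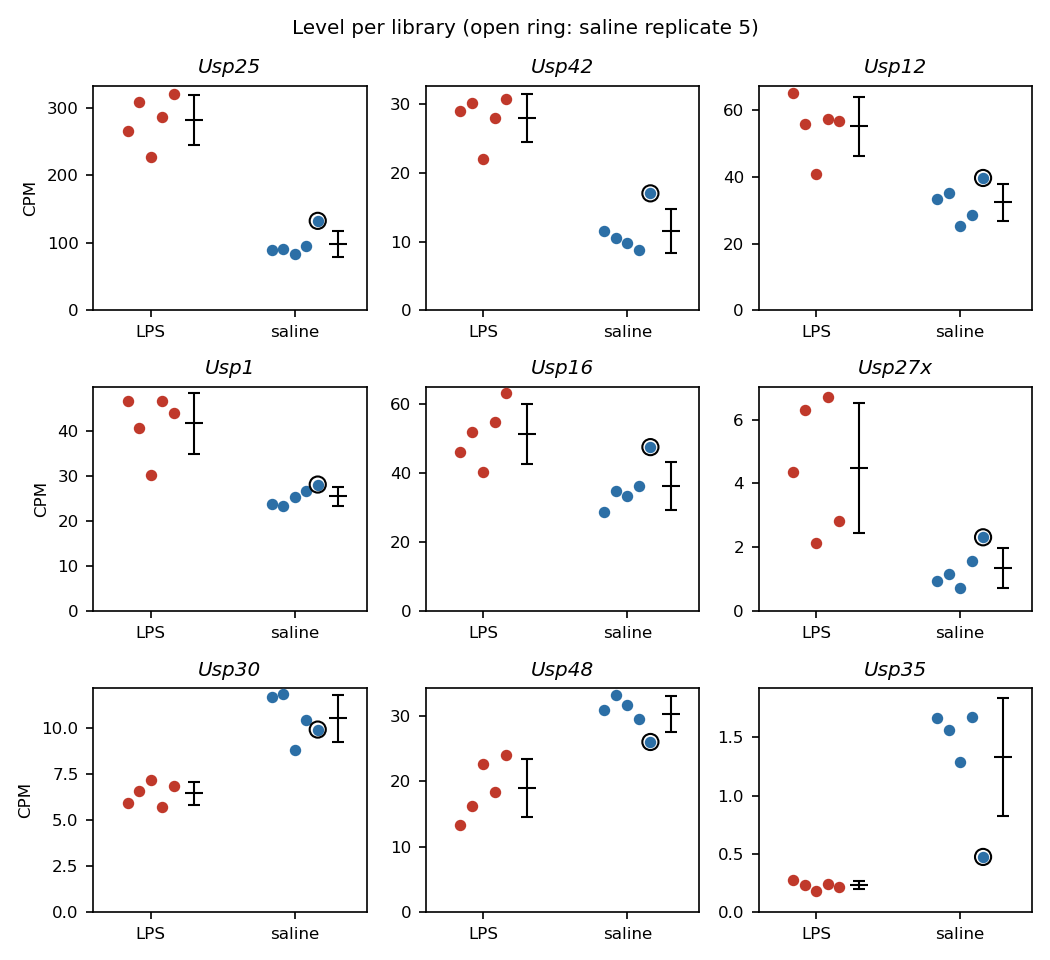
CPM of 9 Usp genes in each library, with LPS on the left in red and saline on the right in blue, each beside a bar of mean and SD (n = 5). An open ring marks saline replicate 5, which is the highest saline value in the 6 genes that rose. Usp25, Usp42, Usp12 and Usp1 show no overlap upwards, and Usp30, Usp48 and Usp35 none downwards.

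Of the proteases that act on the mitochondrial surface or the PINK1-Parkin pathway, Usp30 was tested and fell, and Usp35 had too few reads to enter the test. Usp30 (ENSMUSG00000029592, chr5:114065461-114124720, plus strand) is anchored in the mitochondrial outer membrane and removes ubiquitin that Parkin attaches to damaged mitochondria. It was at 5.95, 6.61, 7.19, 5.73 and 6.84 CPM in LPS hearts and at 11.7, 11.9, 8.81, 10.4 and 9.92 CPM in saline hearts. All LPS hearts lay below all saline hearts, and saline replicate 5 did not stand apart. On the log2 scale the difference was -0.70 ± 0.13 (SE, edgeR adjusted p = 0.000719). Of its exon bases, 5.43% are shared with Alkbh2 on the other strand, a gene with 116 reads over all libraries.

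Usp35 (ENSMUSG00000035713, chr7:97309380-97332020, minus strand), which has been linked to mitochondrial quality control in human cells, had 16 reads over the 5 LPS libraries and 120 over the 5 saline libraries. Its level was 0.277, 0.233, 0.184, 0.246 and 0.218 CPM in LPS hearts and 1.67, 1.56, 1.29, 1.68 and 0.475 CPM in saline hearts. The groups did not overlap, and saline replicate 5, with 8 reads, lay nearest to the LPS hearts. With no filter on low counts the log2 fold change was -2.49 ± 0.46 (SE, edgeR adjusted p = 4.3e-05), a larger fall than in any tested member of the family. Without saline replicate 5 Usp35 passed the filter, with a log2 fold change of -2.71 (edgeR adjusted p = 7.57e-06).

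In the group of innate immune and growth factor signalling, 1 of 9 tested members rose, Usp25, while 2 fell, Usp48 and Usp43, and 6 did not pass. Usp48 (ENSMUSG00000043411, chr4:137593755-137658537, plus strand), a nuclear protease that acts on the NF-kappaB subunit RelA in human cells, was at 13.4, 16.3, 22.6, 18.3 and 24.1 CPM in LPS hearts and at 30.9, 33.3, 31.7, 29.5 and 26.0 CPM in saline hearts. All LPS hearts lay below all saline hearts, with saline replicate 5 the nearest. The fitted log2 fold change was -0.68 ± 0.15 (SE, edgeR adjusted p = 0.00201). Usp43 (ENSMUSG00000020905, chr11:67854523-67922153, minus strand) was at 1.38, 1.63, 2.21, 0.983 and 1.60 CPM in LPS hearts and at 2.61, 2.40, 3.37, 2.78 and 1.78 CPM in saline hearts. Its log2 fold change was -0.71 ± 0.25 (SE, edgeR adjusted p = 0.0362), and the call was lost in 8 of the 10 fits without 1 library (adjusted p up to 0.103) and with no filter on low counts (0.0624). Usp31, an inhibitor of NF-kappaB signalling in human cells, was at 19.9, 21.5, 20.9, 20.2 and 27.1 CPM in LPS hearts and at 21.1, 23.1, 17.7, 23.4 and 21.2 CPM in saline hearts, with a log2 fold change of 0.04 ± 0.11 (SE, edgeR adjusted p = 0.809). The related Usp4, Usp15 and Usp11 had log2 fold changes of 0.05, 0.26 and -0.13, and Usp15, a TGF-beta pathway protease, had an adjusted p of 0.107 with all libraries and 0.0202 without saline replicate 5 (edgeR).

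Of 5 proteases of genome maintenance and the cell cycle, Usp7 rose and 4 did not pass. Usp7 (ENSMUSG00000022710, chr16:8689595-8792308, minus strand), which stabilises both p53 and its ligase Mdm2, was at 78.6, 94.6, 88.2, 92.6 and 102 CPM in LPS hearts and at 67.5, 73.1, 64.1, 67.3 and 79.7 CPM in saline hearts. Saline replicate 5 exceeded the lowest LPS heart and the other saline hearts did not. The log2 fold change was 0.38 ± 0.09 (SE, edgeR adjusted p = 0.00534), with the call lost under upper quartile (0.0527) and total count scaling (0.343). Its relative Usp47 was at 139, 158, 124, 153 and 166 CPM in LPS hearts and at 133, 127, 129, 142 and 160 CPM in saline hearts, with a log2 fold change of 0.10 ± 0.10 (SE, edgeR adjusted p = 0.477). Usp45, a protease of DNA repair, was at 12.2, 13.1, 12.8, 12.0 and 18.0 CPM in LPS hearts and at 16.3, 16.3, 16.4, 17.2 and 17.6 CPM in saline hearts. LPS replicate 5 alone reached the saline values, and the log2 fold change was -0.30 ± 0.12 (SE, edgeR adjusted p = 0.0631, and 0.00311 without that library).

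Of the 4 large proteases with many substrates that were tested, Usp9x rose and Usp24, Usp34 and Usp40 did not pass. Usp9x (ENSMUSG00000031010, chrX:13071498-13173328, plus strand), which protects the survival protein Mcl1 among others, was at 130, 160, 140, 148 and 189 CPM in LPS hearts and at 118, 106, 109, 108 and 148 CPM in saline hearts. Saline replicate 5 lay at the level of LPS replicate 4, and the other saline hearts lay below all LPS hearts. On the log2 scale the difference was 0.38 ± 0.12 (SE, edgeR adjusted p = 0.0218). The call was lost without saline replicate 3 (0.0578) or 4 (0.0592) and under upper quartile (0.118) and total count scaling (0.416). Usp24 was at 103, 113, 104, 107 and 130 CPM in LPS hearts and at 115, 102, 104, 108 and 127 CPM in saline hearts, a log2 fold change of 0.00 ± 0.09 (SE, edgeR adjusted p = 0.991).

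Of the 6 proteases of endosomes, the Golgi and the endoplasmic reticulum, Usp10 rose, Usp33 fell and Usp8, Usp19, Usp20 and Usp32 did not pass. Usp10 (ENSMUSG00000031826, chr8:119910360-119957560, plus strand), which also binds the stress granule proteins G3bp1 and G3bp2, was at 32.9, 34.9, 39.3, 30.3 and 38.8 CPM in LPS hearts and at 32.0, 29.1, 27.7, 27.0 and 27.2 CPM in saline hearts. Its log2 fold change was 0.30 ± 0.10 (SE, edgeR adjusted p = 0.0226), and the call was lost without saline replicate 3 (0.0557) or 4 (0.0598) and under upper quartile (0.27) and total count scaling (0.846). Usp33 (ENSMUSG00000025437, chr3:152346478-152393617, plus strand), known for the recycling of adrenergic receptors, was at 12.1, 13.5, 11.5, 13.1 and 15.3 CPM in LPS hearts and at 17.5, 15.9, 16.7, 16.7 and 17.9 CPM in saline hearts. Its groups did not overlap, with a log2 fold change of -0.37 ± 0.11 (SE, edgeR adjusted p = 0.0117).

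None of the proteases of free chains and the proteasome passed: Usp5 had a log2 fold change of 0.01, Usp13 of 0.22 and Usp14, which sits on the proteasome, of 0.08. In GENCODE M21, Usp14 has 8345 exon bases and shares 26.0% of them with Thoc1 on the other strand, a gene with 3743 reads. The deposited length of Usp14 is 5974 bases, so the overlap of the gene as counted is not known. Usp39, Usp53 and Usp54 did not pass either, with log2 fold changes of 0.11, -0.17 and -0.12. Usp6nl carries the family's symbol but is a GTPase-activating protein of Rab GTPases and no protease, and its log2 fold change was -0.05. Over the 28 members that did not pass, the adjusted p ran between 0.0631 and 0.991 by edgeR, 4 had an unadjusted p under 0.05, and the SE of the log2 fold change was between 0.08 and 0.26. In 22 of the 28 the change was under 0.2 in size. The sign of several of these small changes depended on the scaling, as with Usp13 and Usp19, which were at -0.056 and -0.13 under total count scaling. Usp49 shares 51.2% of its exon bases with another annotated gene on the same strand, and its level is uncertain.

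Of the 12 members below the filter, 5 had no read in any library (Usp17lb, Usp17ld, Usp17le, Usp29 and Usp44). A count of 0 allows up to 3 reads over a group, or 0.0431 CPM in LPS hearts and 0.0337 CPM in saline hearts, by counting error alone. Usp17la, Usp17lc, Usp26, Usp51 and Usp9y had between 1 and 3 reads over all 10 libraries. The Usp17 genes lie in near-identical copies, between which reads may have been split or dropped. Usp50, which lacks a complete active site, had 28 reads in LPS libraries and 40 in saline libraries. Usp35 was the one untested member with a larger difference.

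Some related Usp genes changed unequally. For 15 pairs of relatives with both genes tested, the log2 ratio of their counts was taken within each library, which does not depend on the library scaling. It differed between the groups in 8 of 15 pairs (exact permutation test, two-sided, over 252 assignments, adjusted over the 15 pairs), and the smallest p that the test can give is 0.00794. Each of the 8 pairs holds a member called above, and 39.9% of all tested genes were called. The share among pairs of other genes was not computed, so the count says nothing particular about relatives. The pairs were chosen with earlier results of these data known. The ratio Usp25 over Usp28 was 0.85 ± 0.21 in LPS hearts and -0.57 ± 0.19 in saline hearts (SD, n = 5 each), a difference of 1.42 (exact permutation p = 0.00794, adjusted 0.0298). All 5 LPS hearts had more reads of Usp25 and all 5 saline hearts more reads of Usp28.

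The ratio Usp12 over Usp46 was 1.19 ± 0.19 in LPS hearts and 0.21 ± 0.33 in saline hearts, a difference of 0.98. Usp16 over Usp45 was at 1.91 ± 0.20 in LPS hearts and 1.09 ± 0.22 in saline hearts, a difference of 0.83. Usp9x over Usp24 was at 0.45 ± 0.08 in LPS hearts and 0.08 ± 0.09 in saline hearts, a difference of 0.38. These 3 pairs likewise showed no overlap between the groups and had the same exact permutation p of 0.00794 (adjusted 0.0298; SD, n = 5 each). The remaining 4 pairs overlapped. Usp22 over Usp27x was at 2.53 ± 0.84 in LPS hearts and 4.57 ± 0.76 in saline hearts, a difference of -2.04 (exact permutation p = 0.0159, adjusted 0.034). Usp36 over Usp42 was at -0.45 ± 0.53 in LPS hearts and 0.81 ± 0.36 in saline hearts, a difference of -1.26 with the same p.

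Usp36, a nucleolar protease, was at 15.3, 20.2, 28.7, 15.5 and 25.5 CPM in LPS hearts and at 20.8, 20.1, 19.1, 19.2 and 19.4 CPM in saline hearts. Its LPS values spread to both sides of the narrow saline range, with a log2 fold change of 0.10 ± 0.16 (SE, edgeR adjusted p = 0.671). Usp7 over Usp47 was at -0.69 ± 0.12 in LPS hearts and -0.97 ± 0.10 in saline hearts, a difference of 0.28 (exact permutation p = 0.0159, adjusted 0.034). Usp31 over Usp43 was at 3.82 ± 0.41 in LPS hearts and 3.05 ± 0.43 in saline hearts, a difference of 0.76 (exact permutation p = 0.0238, adjusted 0.0446). The pairs that did not pass included Usp20 over Usp33, with a difference of 0.37 (adjusted exact permutation p = 0.0661), and Usp5 over Usp13, with a difference of -0.21 (0.0952). With 1 library left out the smallest possible p is 0.0159 and the number of pairs that passed was between 0 and 11, while all 8 differences kept their sign. Usp15 over Usp11 and Usp2 over Usp21 passed only without saline replicate 5 (adjusted exact permutation p = 0.0298 for each).

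**Figure D4:**
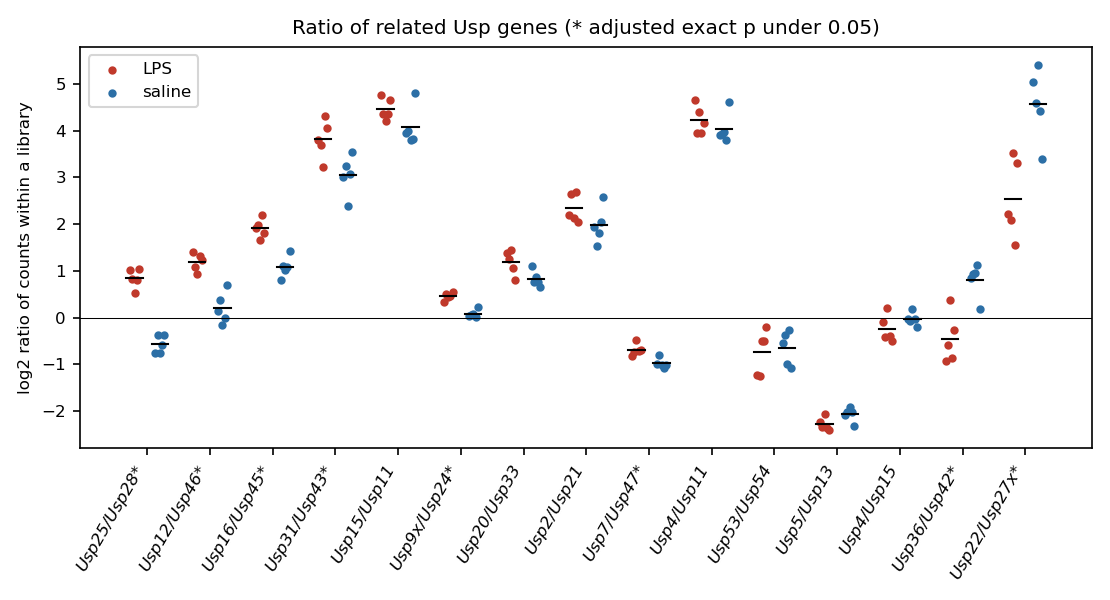
Log2 ratio of the counts of 15 pairs of related Usp genes within each library (y axis), with LPS in red on the left and saline in blue on the right of each pair. Short lines are group means, and a star marks an adjusted exact p under 0.05. Usp25 over Usp28 is above 0 in the LPS hearts and below 0 in the saline hearts.

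Saline replicate 5 often lay towards the LPS group. In 12 of the 15 called members its value lay beyond the other saline hearts on the side of the LPS hearts, which held for 8 of 9 risers and 4 of 6 fallers. The same was so in 11 of the 28 members that did not pass, and in 23 of the 43 tested members, or 53.5%. Over all tested genes the share was 46.3%, with 64.7% among the called ones. It lay within the LPS range in 4 risers (Usp7, Usp9x, Usp16 and Usp27x) and 3 fallers (Usp21, Usp22 and Usp43). The exceptions were Usp10, Usp30 and Usp33. All 15 called members kept their call and direction when this library was left out.

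Markers of other cells also differed between the groups, where 18.9% of all tested genes rose and 21% fell. All 6 endothelial markers fell, with a summed level between 538 and 722 CPM in LPS hearts, 911 CPM in saline replicate 5 and between 1427 and 1864 CPM in saline replicates 1 to 4. Of the fibroblast markers 2 of 6 fell, and of 5 tested pericyte and smooth muscle markers 2 fell. Of 7 macrophage and monocyte markers 2 rose and 2 fell. Of 4 tested neutrophil markers 2 rose, with all 6 listed summing to between 13.2 and 41.7 CPM in LPS hearts, 24.9 CPM in saline replicate 5 and between 1.35 and 4.07 CPM in saline replicates 1 to 4. B cell markers, all too low to be tested, summed to between 0.491 and 1.63 CPM in LPS hearts. They were at 1.25 CPM in saline replicate 5 and between 2.32 and 3.85 CPM in saline replicates 1 to 4. T cell markers summed to between 0.899 and 2.55 CPM in LPS hearts. They were at 0.594 CPM in saline replicate 5 and between 2.08 and 2.34 CPM in saline replicates 1 to 4. The part of these cells in the Usp changes was not tested.

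Among deubiquitinases of the other families, 8 of 36 tested genes rose and 3 fell in LPS hearts. These are 22.2% and 8.33%, against 18.9% and 21% of all tested genes, and their median log2 fold change was 0.04, against -0.02 over all tested genes. The 3 largest rises were those of Tnfaip3, Zup1 and Vcpip1. Tnfaip3 encodes A20, an inhibitor of NF-kappaB signalling, and averaged 448 ± 94.9 CPM in LPS hearts and 29.5 ± 52.2 CPM in saline hearts (SD, n = 5 each). Its log2 fold change was 3.93 ± 1.13 (SE, edgeR adjusted p = 0.024). In saline replicate 5 it was at 123 CPM and in the other saline hearts between 3.37 and 9.47 CPM, and without that library the log2 fold change was 6.18 (edgeR adjusted p = 6.32e-08), while without saline replicate 2 the adjusted p was 0.0558.

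Zup1, a protease of lysine 63-linked chains, rose by 3.09 ± 0.50 on the log2 scale (SE, edgeR adjusted p = 0.0013), with 81.6 ± 29.0 CPM in LPS hearts and 9.57 ± 7.24 CPM in saline hearts (SD, n = 5 each). It was at 22.4 CPM in saline replicate 5 and between 5.05 and 7.75 CPM in the other saline hearts. Vcpip1, which acts with the p97 ATPase in Golgi assembly, rose by 1.13 ± 0.14 (SE, edgeR adjusted p = 3e-05). The fallers were Otud1, Mindy1 and Otub2. Otud1 averaged 5.33 ± 0.508 CPM in LPS hearts and 21.5 ± 5.22 CPM in saline hearts (SD, n = 5 each), a log2 fold change of -2.01 ± 0.18 (SE, edgeR adjusted p = 1.54e-06). Mindy1 had a log2 fold change of -0.64 and Otub2 of -0.63. Falls counted 9 under upper quartile and 15 under total count scaling, and 5 without LPS replicate 3 and 6 without LPS replicate 5.

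Of 20 partners of Usp proteins and genes of ubiquitin supply, 5 rose and 3 fell, which is 25% and 15%, against 18.9% and 21% of all tested genes. Their median log2 fold change was 0.10, against -0.02 over all tested genes. G3bp2, the stress granule partner of Usp10, averaged 63.6 ± 4.41 CPM in LPS hearts and 32.9 ± 4.20 CPM in saline hearts (SD, n = 5 each), a log2 fold change of 0.95 ± 0.10 (SE, edgeR adjusted p = 5.05e-06). G3bp1 rose by 0.40, and Uba1, the main ubiquitin-activating enzyme, by 0.32 on the log2 scale, and both lost the call under upper quartile scaling (edgeR adjusted p = 0.0533 and 0.152). Smad7, the adaptor through which Usp15 acts on the TGF-beta receptor, had a log2 fold change of -1.43 ± 0.25 (SE, edgeR adjusted p = 0.000511). Atxn7l3, the activator of Usp22 and Usp27x, had a log2 fold change of -0.43 ± 0.13 (SE, edgeR adjusted p = 0.0145), lost without saline replicate 1 (0.056) or LPS replicate 4 (0.0509). None of the 4 ubiquitin precursor genes passed, and Ubb, the most abundant, was at 385 ± 81.0 CPM in LPS hearts and 311 ± 16 CPM in saline hearts (SD, n = 5 each; edgeR adjusted p = 0.0637). Rises counted 1 and falls 6 under upper quartile scaling, and rises 3 without saline replicate 4. Falls counted 1 without saline replicate 1 or LPS replicate 4.

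The authors' deposited table of Reactome terms lists 68 differential genes of 160 for the term on ubiquitin-specific processing proteases, 47 up and 21 down, with a p-value of 0.0758 and an adjusted p-value of 0.331. The authors' background for it was 2858 differential genes of 7776, and the term did not pass. In the authors' deposited table, 11 of the 68 are members described here, and all 11 were also called here. Usp1, Usp22, Usp27x and Usp43 were called here and are not listed under that term in the authors' deposited table. The 68 listed genes do not show whether these genes lie outside the term or were not differential for the authors.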

How the data were processed

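Hearts of 5 LPS and 5 saline mice were measured by RNA-seq on TruSeq libraries, per the labels' protocols. The authors deposited read counts per gene for 54532 identifiers, with FPKM beside them, per the file headers. The deposited FPKM values were in a constant ratio to count per kilobase within each library and were used in no test. Bowtie 0.12.2 and mm9 are listed without a role, per the submitters' processing notes. A counting tool, an annotation release and a strand setting are not given there or in the labels. Of the 55 members, 54 have the same start and end as in GENCODE M21, so coordinates are given as GRCm38. In 2 further deposited tables, 10 columns name a time that the labels do not give and were not used here. The p-value and adjusted p-value of the Reactome terms are the authors' own, per the file headers.

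Counts were fitted with edgeR 4.0.16 in R 4.3.3. The filterByExpr function (minimum count 10, minimum total 15) kept 13864 genes. TMM scaling, robust quasi-likelihood F-tests and Benjamini-Hochberg adjustment over those genes were used, with a threshold of 0.05. The fit was tested on simulated data, where 12 of 50 genes changed 1.5-fold were called and 37 of 47 changed 2-fold. Most changes of 1.5-fold were thus missed there. In the simulation 13357 of 13552 genes were unchanged, whereas 39.9% of all tested genes were called in the real data. Adjusted p-values depend on the share of changed genes, so the simulated shares do not carry over to these data. Pairs of relatives were compared with SciPy 1.17.1 by an exact permutation test on log2 count ratios with 0.5 reads added. Sequences are from RefSeq (GRCm38.p6). Counting floors cover counting error only.

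The members and the lists of relatives, partners and markers were chosen with earlier results of these data known. Members past the threshold with a log2 fold change of at least 0.5 in size, the 5 with the highest level per kilobase and those of pairs that differed are given in full, with other members summarised, and 3 genes per direction are named from the 2 lists. Usp10, Usp21, Usp33 and Usp35 and a few further genes were named in full after their values were seen. The fit was repeated with DESeq2 1.42.0, with each library left out in turn, with a replicate block, with no filter or 1 CPM in 5 libraries as the filter, and with scaling by RLE, upper quartile or total count. The pairs were repeated with 2 reads added.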

Additional observations from a re-analysis of the deposited data

Results flagged for a closer look

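In 7 of 86 groups of 5 libraries, 1 library lay far from the 4 others, by the gap to its nearest neighbour as a share of the group's range. Chance flags about 1 in 20 groups. Saline replicate 5 was the library in 4 of the 7. Its level was 132 CPM in Usp25, with the other saline hearts between 83.5 and 94.6 CPM, and 148 CPM in Usp9x, with the others between 106 and 118 CPM. It was at 18.3 CPM in Usp54, with the others between 12.8 and 14.4 CPM, and at 8.73 CPM in Usp6nl, with the others between 11.5 and 12.5 CPM. LPS replicate 5 was at 27.1 CPM in Usp31, with the other LPS hearts between 19.9 and 21.5 CPM, and at 18.0 CPM in Usp45, with the others between 12.0 and 13.1 CPM. Saline replicate 2 was at 13.7 CPM in Usp37, with the other saline hearts between 9.48 and 10.6 CPM.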

How the results depend on the processing

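Usp25, Usp42, Usp12, Usp1, Usp27x, Usp30, Usp48 and Usp33 kept their direction and their call under every alternative run. Over the fits without 1 library the Usp genes counted 7 to 11 rises and 3 to 8 falls, other deubiquitinases 3 to 6 falls, partners and supply genes 3 to 6 rises and 1 to 4 falls, and 0 to 11 pairs of relatives differed. In the fits without 1 library the called share was 23.3% to 43.2% of Usp genes, against 34.2% to 44.0% of all tested genes. Total count scaling gave 5 rises and 16 falls of Usp genes, a called share of 48.8%, against 54.0% of all tested genes. Falls of other deubiquitinases counted 9 under upper quartile and 15 under total count scaling, where 4407 and 5774 of all 13864 tested genes fell. Partners and supply genes counted 1 rise under either scaling, with 6 falls under upper quartile and 9 under total count scaling. The labels name no pairing of mice by replicate number, and 5 correlations without a test cannot decide whether there was any. Between libraries of the same number the correlations of the deviations were -0.03, -0.07, 0.18, 0.02 and -0.05 for numbers 1 to 5. Only number 3 correlated best with its own. The replicate block gave 10 rises and 5 falls: Usp15 passed (edgeR adjusted p = 0.0448) and Usp22 no longer did (0.0855).

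Signs that turned were all in members that had not passed. Under total count scaling the log2 fold changes were -0.056 (Usp13), -0.20 (Usp14), -0.0082 (Usp15), -0.13 (Usp19), -0.27 (Usp24), -0.16 (Usp28), -0.024 (Usp3), -0.23 (Usp31), -0.17 (Usp36), -0.25 (Usp38), -0.16 (Usp39), -0.22 (Usp4), -0.17 (Usp47) and -0.26 (Usp5). Under upper quartile scaling they were -0.082 (Usp14), -0.019 (Usp19), -0.15 (Usp24), -0.047 (Usp28), -0.12 (Usp31), -0.059 (Usp36), -0.13 (Usp38), -0.046 (Usp39), -0.11 (Usp4), -0.059 (Usp47) and -0.15 (Usp5). Usp20 was at 0.010 under RLE scaling and 0.012 in DESeq2, and Usp24 at -7.9e-05 with the filter of 1 CPM. Without 1 library the ranges were -0.16 to 0.0018 (Usp2), -0.040 to 0.092 (Usp20), -0.054 to 0.055 (Usp24), -0.041 to 0.10 (Usp31), -0.030 to 0.21 (Usp36), -0.017 to 0.087 (Usp38), -0.023 to 0.078 (Usp5) and -0.15 to 0.039 (Usp6nl). The scalings move all genes together, and the cause of the other changes was not tested. Depth limits the untested members, and Usp43, Usp27x and Usp49 had the fewest reads of those tested.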
